A study of Mus musculus with 6 samples.

Results

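The genes described here are 34 interferon-stimulated genes with antiviral roles, taken by symbol and Ensembl ID from 43432 gene rows; all 34 symbols matched 1 row each, and all 34 passed the filter on low counts that left 12908 genes. They were measured by RNA-seq in neutrophils sorted as CD45+, CD11b+ and high for Ly6G from digested uteri of 4-week-old PRPL mice on the C57BL/6 strain. Every mouse carried the PRPL genotype, with Cre made from the Pgr locus and so in cells that express the progesterone receptor, and neither group is free of this genotype. The normoxia group (3 libraries) lived in ambient air, and the hyperoxia group (3 libraries) in a chamber at 60% oxygen for the last 10 days, between postnatal day 18 and postnatal day 28. The comparison asked whether oxygen given to the host changed the interferon-stimulated antiviral transcripts of these neutrophils.

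Type I interferons bind a receptor made of IFNAR1 and IFNAR2, whose kinases JAK1 and TYK2 phosphorylate transcription factors, STAT2 among them. These join IRF9 in a complex that enters the nucleus and binds the interferon-stimulated response element, a purine-rich motif near the start of its target genes. The proteins made from these genes sense foreign RNA, degrade it, block its translation or stop viruses at membranes, and neutrophils are known to express many of them in response to interferon.

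The libraries held 38683293 to 61715617 gene counts, and the 34 genes took 2.34% to 3.40% of a library. Levels are given as CPM, counts scaled to the TMM-adjusted size of each library, and differences as log2 of hyperoxia over normoxia with the standard error (SE) of the fit. Neutrophil markers fixed for this report were abundant, with the receptor gene Cxcr2 at 2302 ± 256 CPM in normoxia and 2192 ± 465 CPM in hyperoxia (SD, n = 3 each). Ly6g, the gene of the sort marker, stood at 146, 53.4 and 72.7 CPM in normoxia and at 196, 351 and 38.9 CPM in hyperoxia. Its difference was 1.11 ± 0.69 (SE). Differences of the 10 markers ran from -0.68 (Cxcr4) to 1.87 (Retnlg), with 7 above 0 and 3 below. All 10 of these markers were tested and none passed in edgeR, where 0.0% of all genes tested passed, so this does not show equal levels. Their summed level was 44404 to 63629.8 CPM in normoxia and 45030.0 to 107894 CPM in hyperoxia. Markers of other cell types were also present, none of them at 0 in all libraries: 14 monocyte and macrophage markers summed to 1555 to 1752 CPM in normoxia and 2294 to 3526 CPM in hyperoxia. In these bulk samples, fewer cells of a type and less RNA per cell cannot be told apart.

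The response element can be read in the sequences before several of the genes. RefSeq windows from 250 bases before to 50 bases after a gene start (GRCm38.p6) were found for 26 of the 34 genes. The motif core (GAAA, any 2 bases, then GAAA), searched on both strands with overlapping matches allowed, was present for 16 of the 26 (61.5%), against 3.99% of 27025 genes with a window. The 9 stretches here, each 60 bases long and ending before the annotated start, are examples of genes with a match before the start. Ifitm2, Trim30a and Slfn5 also had such a match and are not shown. Capitals mark each match, which reads as TTTC, any 2 bases, then TTTC where it lies on the opposite strand.
Isg15: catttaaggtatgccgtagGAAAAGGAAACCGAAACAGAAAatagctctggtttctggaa
Rsad2: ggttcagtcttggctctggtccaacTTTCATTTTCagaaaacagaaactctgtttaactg
Ifit1: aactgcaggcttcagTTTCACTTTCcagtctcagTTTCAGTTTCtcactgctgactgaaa
Ifit3: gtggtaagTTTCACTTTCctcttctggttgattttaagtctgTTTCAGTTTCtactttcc
Ifit3b: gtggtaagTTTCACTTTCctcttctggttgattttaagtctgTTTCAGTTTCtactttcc
Oas1a: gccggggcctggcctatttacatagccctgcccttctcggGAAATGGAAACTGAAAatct
Oas1g: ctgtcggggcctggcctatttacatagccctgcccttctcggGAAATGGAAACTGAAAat
Oas3: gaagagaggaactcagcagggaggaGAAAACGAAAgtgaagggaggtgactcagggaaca
Bst2: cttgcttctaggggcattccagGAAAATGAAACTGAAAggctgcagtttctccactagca

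The stretches lie on the minus strand at chr4:156200856-156200915 (Isg15), chr12:26456538-26456597 (Rsad2), chr5:120907526-120907585 (Oas1a), chr5:120887614-120887673 (Oas1g), chr5:120777700-120777759 (Oas3) and chr8:71537565-71537624 (Bst2). Those of Ifit1 (chr19:34640770-34640829), Ifit3 (chr19:34583365-34583424) and Ifit3b (chr19:34607761-34607820) lie on the plus strand, and all are printed in the direction of the gene. Before Isg15 there were 3 overlapping matches in a row. The stretches of Ifit3 and Ifit3b were identical at 60 of 60 bases, and those of Oas1a and Oas1g, aligned at the motif, at 57 of 58. A match describes these letters only, and the 10 genes without one, among them Ifit2, Oasl1, Oasl2, Ifi44 and Cmpk2, are without it in this window only.

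Antiviral transcripts were among the most abundant of the normoxia neutrophils. Of the 34 genes, 11 averaged above 1000 CPM in normoxia, and 9 ranked among the 100 highest of the 12908 genes when the level was divided by exon length. On that scale (CPM per kb of exon) Ifitm3 stood at 4704 and rank 15, Ifitm2 at 3268 and rank 23, Ifitm1 at 2810.2 and rank 26, and Isg15 at 2767 and rank 28. Ifit1 (992), Isg20 (899.5), Rtp4 (831), Rsad2 (819.8) and Oasl1 (757) followed. At the other end stood Mx2 (0.671 CPM per kb), Mx1 (0.438) and Ifi44 (0.239), the 3 genes that averaged under 5 CPM in normoxia; no other member ranked below 2471, the place of Eif2ak2.

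In the quasi-likelihood test of edgeR 0 of the 34 genes had an adjusted p under 0.05, as had 0.0% of all genes tested. At an unadjusted p under 0.05, 2 of the 34 were higher in hyperoxia (Mx1 and Ifi44), where 9.1% of all genes tested were, and 0 were lower, where 3.91% were. DESeq2 on the same counts called 1 member, Mx1, as higher, against 3.14% of its genes called higher and 0.273% lower. The groups did not overlap for 2 of the 34 members, Mx1 and Ifi44, both with hyperoxia above; for all genes tested the share was 9.57% above and 10.3% below. The median log2 difference of the members was -0.12, with 14 above 0 and 20 below, beside 0.04 over all genes tested. For 20 of the 34 genes the 95% interval of the difference lay within a 2-fold change in either direction, while for 14 it reached beyond.

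**Figure D1:**
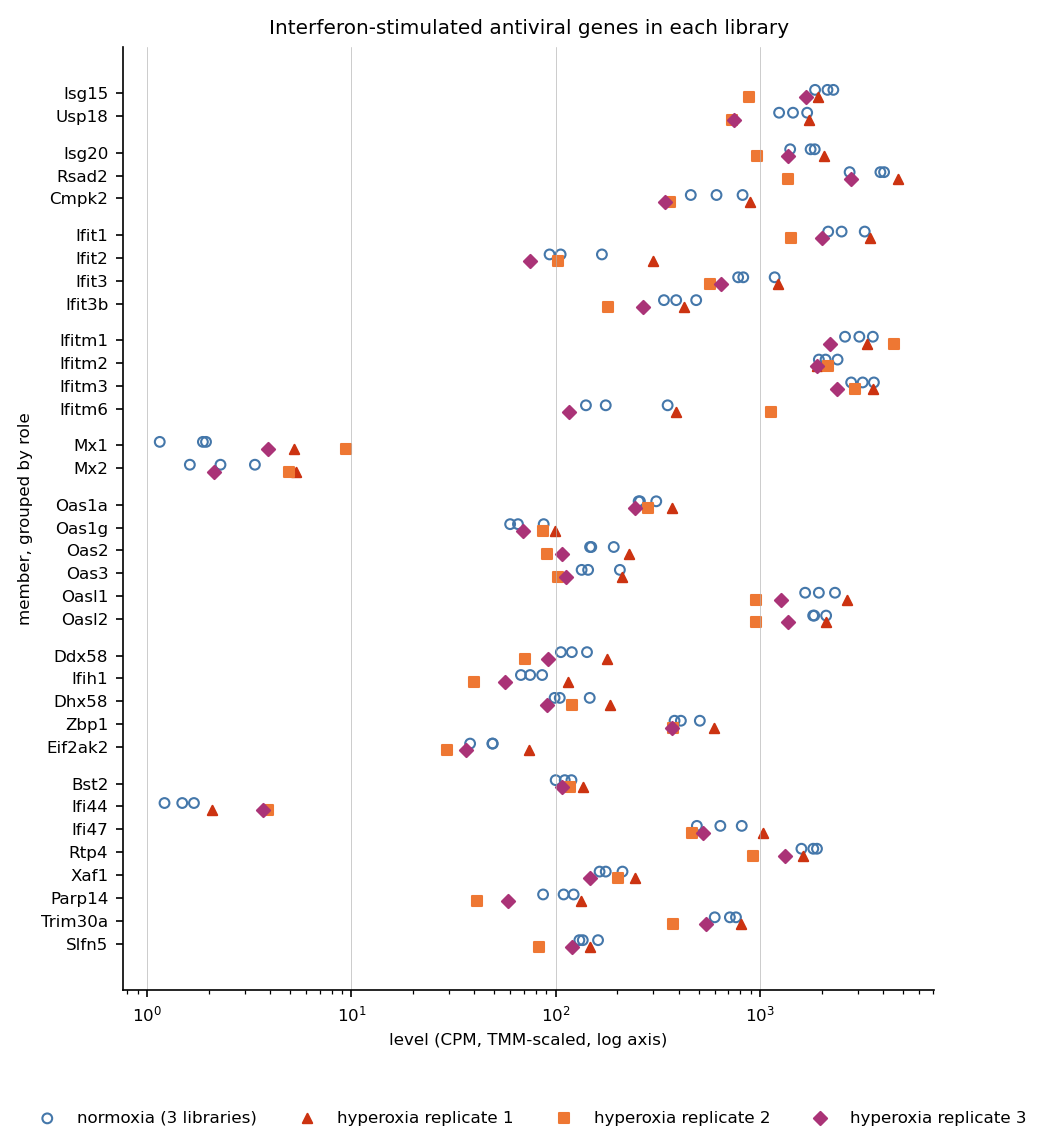
Level of each of the 34 genes (CPM, log axis) in the 3 normoxia libraries (open circles) and the 3 hyperoxia libraries (1 symbol per replicate), grouped by role. Hyperoxia replicate 1 is the highest of the 6 libraries for 23 genes and replicate 2 the lowest for 19; the 3 genes at the low end of the axis are Mx1, Mx2 and Ifi44.

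Isg15 and Usp18 act on the same modification: ISG15 is a ubiquitin-like protein attached to other proteins, and USP18 removes it and also dampens signalling at the interferon receptor. Isg15 (chromosome 4, 156199424 to 156200818, GRCm38) stood at 2136, 1857 and 2282 CPM in normoxia, and hyperoxia replicates 1, 2 and 3 at 1914, 882 and 1676 CPM. Replicates 2 and 3 lay below all normoxia libraries and replicate 1 lay among them, so the groups overlapped. The log2 difference was -0.49 ± 0.31 (SE), with a 95% interval of -1.19 to 0.22 (edgeR; adjusted p 0.539). Usp18 stood at 1699, 1238 and 1448 CPM in normoxia and at 1728, 732 and 747 CPM in hyperoxia. Here hyperoxia replicate 1 was the highest of all 6 libraries and the other two were the lowest, which left a difference of -0.45 ± 0.36 (SE; adjusted p of 0.642). Exons of Usp18 overlap the opposite-strand gene Gm44148, whose reads cannot be told apart without a strand setting.

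Rsad2 and Cmpk2 are neighbours on chromosome 12: Rsad2 encodes viperin, which makes a nucleotide that ends viral RNA chains, from the product of nucleotide kinases such as that of Cmpk2. Rsad2 (26442746 to 26456452) stood at 4042, 2742 and 3878 CPM in normoxia and at 4702, 1365 and 2781 CPM in hyperoxia. Cmpk2 (26469204 to 26479837) stood at 821, 458 and 612 CPM and at 889, 361 and 344 CPM. For both genes hyperoxia replicate 1 was the highest library, and the lowest was hyperoxia replicate 2 for Rsad2 and replicate 3 for Cmpk2. Their log2 differences were -0.27 ± 0.42 and -0.25 ± 0.41 (SE), with intervals of -1.22 to 0.69 and -1.17 to 0.68. Isg20, an RNA exonuclease, had the same library order as Rsad2 within hyperoxia (2059, 966 and 1373.5 CPM, against 1850.2, 1403 and 1766 CPM in normoxia) and a difference of -0.19 ± 0.30 (SE). None of the 3 genes separated the groups.

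The IFIT proteins bind foreign RNA, and their genes lie side by side on chromosome 19. Ifit1 (34640871 to 34650009), whose product holds RNA with an unmodified cap, stood at 3249.7, 2153 and 2505 CPM in normoxia and at 3459.7, 1423 and 2012 CPM in hyperoxia, a difference of -0.20 ± 0.35 (SE). Ifit2, a partner of Ifit1, was lower in level at 168, 93.3 and 106 CPM and 298, 103 and 74.9 CPM. Its hyperoxia replicate 1 lay above every other library, and the difference of 0.37 ± 0.50 (SE) had an interval of -0.76 to 1.51. Ifit3, which stabilises the complex, and its copy Ifit3b shared 51.2% and 45.0% of their transcript 50-mers with other genes, almost all with each other, so their separate values are uncertain. Summed, the pair stood at 1664, 1119 and 1215 CPM in normoxia and 1644, 746 and 912 CPM in hyperoxia, with a difference of -0.28 ± 0.33 (SE). Counted apart they differed by -0.20 ± 0.34 and -0.48 ± 0.32 (SE).

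IFITM proteins sit in membranes and hinder the entry of enveloped viruses; the genes cluster on chromosome 7. Ifitm3 (141009586 to 141010770), the member with the highest level per length, stood at 3604, 2789 and 3176 CPM in normoxia and at 3560.3, 2911 and 2375 CPM in hyperoxia, and differed by -0.11 ± 0.24 (SE; interval -0.67 to 0.44). Ifitm2 had the smallest spread in hyperoxia of the 11 genes above 1000 CPM, at 1902, 2144 and 1889 CPM against 2393, 1938 and 2091 CPM, a difference of -0.11 ± 0.21 (SE). Its exons overlap a same-strand gene model, Gm45717, and 48.5% of its 50-mers occur in other transcripts. In this family hyperoxia replicate 2 was not the lowest library. Ifitm1 reached 4517 CPM in it, above all other libraries (3561, 2603 and 3059 CPM in normoxia; 3329 and 2201 CPM in hyperoxia replicates 1 and 3). Ifitm6 varied most, at 353, 140.5 and 176 CPM in normoxia and 386, 1134 and 116 CPM in hyperoxia, a difference of 1.29 ± 0.72 (SE; adjusted p of 0.486). Replicate 2 decided its size: without it the difference was 0.20 ± 0.54 (SE). Without replicate 3, the library where Ifitm6 was lowest, the difference was 1.77. DESeq2 then called Ifitm6 (adjusted p 0.0171), against 4.37% of its genes, a call that depends on which library is left out. In replicate 2 the sum of the neutrophil markers was also highest, at 107894 CPM, but the single markers were split. S100a8, S100a9, Retnlg, Mmp9 and Ly6g were at their highest in this library, and Csf3r, Cxcr4, Il1r2 and Hdc at their lowest. The part of this in the value of Ifitm6 was not tested.

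OAS enzymes make short oligoadenylates that switch on an RNase, and the OAS-like proteins are their relatives. Oasl1, known as a repressor of Irf7 translation, stood at 2324, 1661 and 1938 CPM in normoxia and at 2669, 949.8 and 1261 CPM in hyperoxia, and Oasl2 at 2104, 1839.9 and 1818 CPM and 2098, 951 and 1373.2 CPM. These neighbours on chromosome 5 had hyperoxia replicates 2 and 3 below every normoxia library and replicate 1 within or above them. They differed by -0.28 ± 0.38 and -0.38 ± 0.30 (SE). Oas2 (192, 149 and 147 CPM against 228, 90.7 and 108 CPM) and Oas3 (206, 144 and 134 CPM against 211, 102 and 112 CPM) had the same order, with differences of -0.20 ± 0.35 and -0.19 ± 0.32 (SE). Oas1a and Oas1g, whose transcripts shared 57.6% and 45.7% of their 50-mers with other genes, are uncertain apart. Their sum was 398, 323 and 314 CPM in normoxia and 470.4, 369 and 313 CPM in hyperoxia, a difference of 0.15 ± 0.23 (SE). Exons of Oasl1 overlap the opposite-strand gene Gm13822.

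The 5 nucleic acid sensors had differences between -0.12 and 0.17 on the log2 scale. Ddx58 (RIG-I) and Ifih1 (MDA5), which recognise viral RNA in the cytosol, stood at 142, 106 and 119.8 CPM and 85.8, 67.5 and 74.9 CPM in normoxia. In hyperoxia they stood at 178, 70.8 and 91.5 CPM and 114, 39.9 and 56.4 CPM, with differences of -0.11 ± 0.34 and -0.12 ± 0.36 (SE). Dhx58 (LGP2), which tunes both, differed by 0.17 ± 0.30, Zbp1, a sensor of Z-form nucleic acid that can trigger cell death, by 0.05 ± 0.26, and Eif2ak2 (PKR), a kinase that halts translation, by 0.04 ± 0.34 (SE). The direction of Eif2ak2 turned when libraries were scaled by size alone or tested with limma-voom. For all 5 sensors hyperoxia replicate 1 was the highest of the 6 libraries, and the 95% intervals lay within a 2-fold change. Exons of Dhx58 and Eif2ak2 overlap opposite-strand genes.

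Among the other effectors, Rtp4, an interferon-induced chaperone of membrane receptors, stood at 1820.1, 1592 and 1898 CPM in normoxia and at 1621, 925 and 1326 CPM in hyperoxia. Its difference of -0.46 ± 0.26 (SE; interval -1.05 to 0.14) was one of the lowest values among members, together with Isg15, Ifit3b, Usp18 and Parp14. Parp14, an ADP-ribosyltransferase, stood at 122, 86.7 and 109 CPM and 133, 41.1 and 58.1 CPM, and its hyperoxia libraries included both the highest and the lowest of the 6, with a difference of -0.46 ± 0.41 (SE). Bst2 (tetherin), which holds virus particles at the cell surface, stood at 111, 99.9 and 119 CPM and 136, 118 and 108 CPM and had the narrowest interval of all members (-0.31 to 0.58). Trim30a, a TRIM-family protein, differed by -0.27 ± 0.30, Slfn5, of the schlafen family, by -0.29 ± 0.25, Ifi47, an immunity-related GTPase, by 0.05 ± 0.35, and Xaf1, a partner of the apoptosis inhibitor XIAP, by 0.10 ± 0.24 (SE). The sign of Ifi47 turned with limma-voom, and its exons overlap Olfr56 and the opposite-strand gene Gm12188. Slfn5 overlaps the opposite-strand gene Slfn5os. Exons of Rtp4 overlap the same-strand gene Gm45338, with 11.6% of its 50-mers shared, and those of Parp14 the same-strand gene Gm49730.

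**Figure D2:**
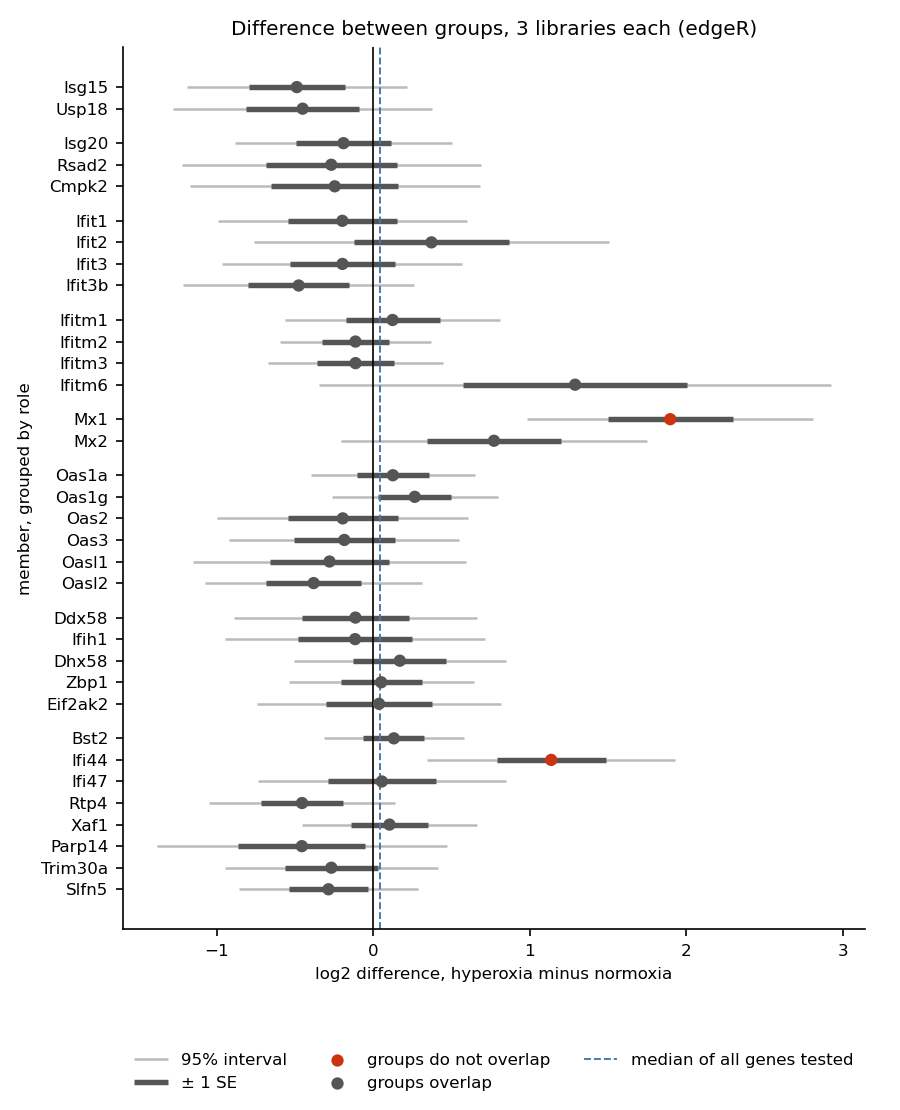
Log2 difference of each member between the groups (edgeR; points), with 1 SE (thick bars) and the 95% interval (thin bars); the dashed line is the median of all genes tested, 0.04. Only the intervals of Mx1 and Ifi44 lie to the right of 0, and none lies wholly to its left.

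Mx1 and Ifi44, expressed at low levels, were the 2 members whose hyperoxia libraries all lay above normoxia. Mx proteins are dynamin-like GTPases that block the replication of viruses; C57BL/6 mice are known to carry an Mx1 allele with a deletion in the coding exons. Mx1 (chromosome 16, 97447035 to 97462907) stood at 1.94, 1.15 and 1.88 CPM in normoxia, with 83, 52 and 73 counts, and at 5.21, 9.40 and 3.90 CPM in hyperoxia, with 206, 600 and 185 counts. All 3 hyperoxia libraries were above all 3 normoxia libraries. The log2 difference was 1.90 ± 0.40 (SE; interval 0.98 to 2.81); the adjusted p was 0.134 in edgeR but 0.000849 in DESeq2. Without a filter on low counts edgeR called it too (adjusted p 0.0146), and 0.925% of genes. DESeq2 called Mx1 with each library left out in turn as well, with adjusted p from 7.37e-05 to 0.0484. Ifi44, whose function is less well known, stood at 1.22, 1.49 and 1.70 CPM in normoxia and at 2.08, 3.89 and 3.71 CPM in hyperoxia, again without overlap. It differed by 1.14 ± 0.35 (SE; adjusted p of 0.243 in edgeR and 0.0865 in DESeq2). Mx2, the other Mx gene, is annotated in GENCODE M21 as a polymorphic pseudogene. It stood at 3.37, 1.62 and 2.29 CPM and 5.36, 4.94 and 2.13 CPM, where hyperoxia replicate 3 lay among the normoxia libraries. Its difference was 0.77 ± 0.43 (SE, adjusted p of 0.485 in edgeR).

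Markers of monocytes, macrophages and endothelium had higher sums in every hyperoxia library than in any normoxia library. Of 14 tested monocyte and macrophage markers 10 were higher at an unadjusted p under 0.05 and DESeq2 called 9 (edgeR 0), with the sums given above; of all genes tested 9.1% were higher at that p, and DESeq2 called 3.14% higher. The 9 endothelial markers summed to 8.87 to 14.2 CPM in normoxia and 27.9 to 66.8 CPM in hyperoxia; 8 of the 9 were higher at an unadjusted p under 0.05, DESeq2 called 7, and their median log2 difference was 3.34. The 7 stromal markers summed to 17.6 to 55.8 CPM in normoxia and 34.4 to 238 CPM in hyperoxia, and all 6 that were tested had such a p, with 2 called by DESeq2. Plasmacytoid dendritic cell markers, 8 genes of the cell type known for making type I interferon, summed to 26.5 to 36.9 and 36.1 to 40.0 CPM; DESeq2 called 1, Siglech. T and NK cell markers summed to 5.08 to 15.9 and 6.60 to 26.9 CPM with 1 call by DESeq2, B cell markers to 1.33 to 2.44 and 1.97 to 7.41 CPM, and epithelial markers to 62.1 to 137 and 10.4 to 186 CPM. Higher at an unadjusted p under 0.05 were 2 of 5 tested plasmacytoid dendritic cell, 4 of 9 T and NK cell, 3 of 4 B cell and 0 of 5 epithelial markers. Their part in the values of Mx1 and Ifi44, and of the other low-level genes called by DESeq2 that are given further on, was not tested.

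Most members followed the same order of libraries within hyperoxia, with replicate 1 high and replicates 2 and 3 low. Relative to the normoxia mean, the median of the 34 genes on the log2(CPM + 0.5) scale was 0.42 in hyperoxia replicate 1, -0.66 in replicate 2 and -0.35 in replicate 3. The normoxia libraries lay at 0.22, -0.20 and -0.02. Over all genes tested the same medians lay between -0.01 and 0.0064. Hyperoxia replicate 1 was the highest of the 6 libraries for 23 of the 34 members, a place it held for 15.4% of all genes tested. Hyperoxia replicate 2 was the lowest for 19 members (26.0% of all genes) and replicate 3 for 10 (18.0%). The SD of log2(CPM + 0.5) had a median of 0.60 over members in hyperoxia and 0.22 in normoxia, beside 0.38 and 0.20 over all genes; these genes share their libraries and are not independent. Monocyte and macrophage markers were lowest in replicate 1 of the hyperoxia libraries (2294 CPM, against 3526 and 3158 CPM), as were endothelial markers; their part in the order of the members was not tested.

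**Figure D3:**
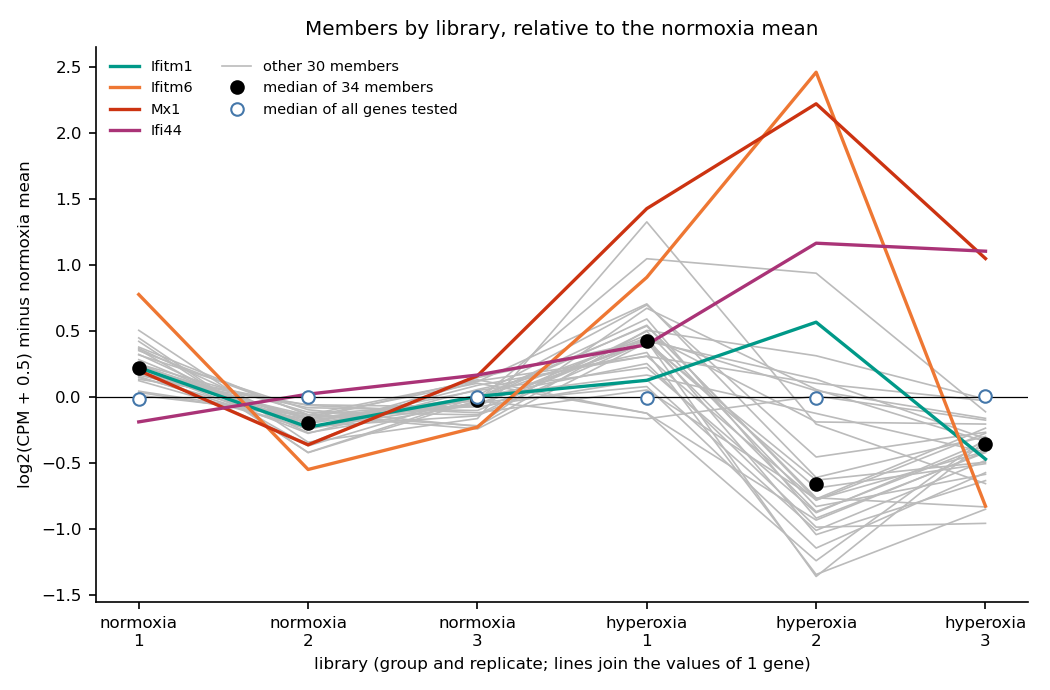
Each line joins the values of 1 member in the 6 libraries, as log2(CPM + 0.5) minus its normoxia mean; black points are the median of the 34 members and open circles that of all genes tested. The black points stand at 0.42, -0.66 and -0.35 in the hyperoxia libraries, while Mx1 and Ifi44 lie above 0 in all 3.

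Leaving out hyperoxia replicate 1 moved the comparison most. This library was the highest of the 6 for 23 of the 34 members, so their differences fall by construction when it is left out. The p-values from that setting are therefore no separate support for a lower level. Without hyperoxia replicate 1 the median log2 difference of the members was -0.48, with 27 of 34 below 0, and the median of all genes tested was 0.09. In edgeR 0 members passed, against 1.3% of genes. An unadjusted p under 0.05 was reached downward by 10 members (Cmpk2, Ddx58, Ifih1, Ifit3b, Oas2, Oasl1, Oasl2, Parp14, Rtp4 and Usp18), against 5.23% of all genes, and upward by 2 (Mx1 and Ifi44), against 13.1%. Usp18 differed by -0.95 (adjusted p of 0.104), Parp14 by -1.07 (0.095) and Oasl1 by -0.81 (0.172) in edgeR. DESeq2 without that library called 5 members, against 6.71% of its genes: Usp18 (adjusted p of 0.00238), Parp14 (0.00334) and Oasl1 (0.0302) as lower, and Mx1 (0.00217) and Ifi44 (0.00528) as higher. Without hyperoxia replicate 2 the median turned to 0.07, with 22 of 34 above 0, and without normoxia replicate 1 to 0.08, with 23 above 0. In edgeR an unadjusted p under 0.05 was then reached upward by 2 and 3 members, against 10.6% and 7.6% of all genes. Downward it was reached by 0 members in both, against 3.68% and 1.56%.

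Genes upstream of the members were taken from lists of the pathway. Of 21 interferon genes, 16 had no count in any library. Ifnb1, which encodes interferon beta, had 3 counts in normoxia altogether and 4 in hyperoxia, too few to compare. Only Ifng and Ifne could be tested: Ifng, the type II interferon, stood at 0.164, 0.244 and 0.385 CPM in normoxia and 0.127, 0.439 and 3.41 CPM in hyperoxia, high in replicate 3 alone (difference 2.32 ± 1.06, SE; adjusted p of 0.4), and Ifne differed by -0.46 ± 0.83 (SE).

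Of 12 receptor and signalling genes, all tested, 0 reached an unadjusted p under 0.05. At that p 9.1% of all genes tested were higher and 3.91% lower. The receptor genes Ifnar1 (106, 104 and 91.2 CPM in normoxia, 105, 65.2 and 98.8 CPM in hyperoxia) and Ifnar2 (107, 99.6 and 94.7 and 109, 90.8 and 98.1 CPM) differed by -0.16 ± 0.23 and -0.02 ± 0.19 (SE). Stat2 and Irf9, which belong to the transcription complex and are themselves induced by interferon, differed by -0.15 ± 0.42 and -0.48 ± 0.26 (SE). Stat2 had the library order of the members, at 198, 72.0 and 73.6 CPM in hyperoxia replicates 1, 2 and 3 against 170.5, 105 and 105 CPM in normoxia. Of the receptor genes for interferon gamma, Ifngr1 had the lowest p among genes with a positive difference (0.34 ± 0.27, SE) and Ifngr2 among those with a negative one (-0.44 ± 0.22, SE; adjusted p of 0.433).

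Of 14 tested genes that lead to interferon production, 0 passed in edgeR, DESeq2 called 1, and the unadjusted p was under 0.05 for 2 that were higher and 3 that were lower, beside 9.1% and 3.91% of all genes. Irf7, the inducible master factor of interferon alpha genes, was highly expressed at 3195, 2476 and 2736 CPM in normoxia and 3490.5, 1950.2 and 2036 CPM in hyperoxia, again with replicate 1 highest, and differed by -0.17 ± 0.29 (SE). Tlr7, an endosomal sensor of single-stranded RNA, was the gene called: it stood at 1.26, 1.64 and 1.90 CPM in normoxia and 3.54, 6.21 and 3.07 CPM in hyperoxia, a difference of 1.42 ± 0.36 (SE; adjusted p of 0.176 in edgeR and 0.0184 in DESeq2). Tlr9, the endosomal DNA sensor, was filtered out, with at most 31 counts in a library. Ikbke, a kinase of the interferon-inducing cascade, stood at 31.7, 39.6 and 33.0 and 20.4, 23.7 and 25.1 CPM (-0.59 ± 0.19, SE; adjusted p of 0.272), and Irf3, its target, at 57.8, 64.2 and 59.8 and 38.5, 46.8 and 46.6 CPM (-0.46 ± 0.19, SE; 0.352). Cgas, a cytosolic DNA sensor, stood at 12.7, 10.8 and 12.9 and 7.36, 2.95 and 7.56 CPM (-1.03 ± 0.35, SE; adjusted p of 0.284). For all 3, the hyperoxia libraries lay below all normoxia libraries. This held for 5 of the 14 tested genes, and for 2 the hyperoxia libraries lay above. The shares over all genes tested were 10.3% below and 9.57% above.

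Of 9 negative regulators 8 were tested, since Trex1 was listed at 0 in every library. All 8 had differences below 0, as had 5976 of 12908 genes. In edgeR 0 passed, 2 were lower with an unadjusted p under 0.05 (3.91% of all genes), and DESeq2 called 1 lower (0.273%). Socs1, which blocks JAK kinases at the interferon receptors, stood at 74.0, 65.4 and 93.7 CPM in normoxia and at 39.6, 31.5 and 29.5 CPM in hyperoxia. Here hyperoxia replicate 1 lay with the other two, below all normoxia libraries, and the difference was -1.21 ± 0.22 (SE; adjusted p of 0.106 in edgeR and 0.00156 in DESeq2).

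A list of 63 other interferon-stimulated genes, 61 of them matched and tested, had a median log2 difference of -0.0034, with 30 above 0 and 31 below. In edgeR 0 passed; the unadjusted p was under 0.05 for 9 higher and 2 lower genes, and DESeq2 called 9 as higher and 0 as lower. Over all genes these shares were 9.1% and 3.91%, and for DESeq2 3.14% and 0.273%. The monocyte, macrophage and endothelial markers given above were high in the same libraries, and their part in these calls was not tested. Phf11d, a PHD-finger gene of a mouse cluster, had the lowest p of those higher, at 4.00, 4.61 and 4.29 CPM in normoxia and 12.8, 25.3 and 15.5 CPM in hyperoxia (2.05 ± 0.29, SE; adjusted p 0.0974 in edgeR), and Irgm2, an immunity-related GTPase, the lowest p of those lower (-0.85 ± 0.35, SE; 0.359). The other genes called were Ifi203, Ifi205, Ifi213, Iigp1, Lgals3bp, Ms4a4c, Phf11a and Phf11b, named because DESeq2 called them. Several of these come in families of similar sequence, whose reads may be split between copies. Their levels in normoxia were low: the highest was that of Lgals3bp, at 34.6 ± 4.22 CPM (SD, n = 3).

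Level and difference were set side by side for the 34 members and these 61 genes, split at their median level of 152 CPM over the 6 libraries, a split chosen after the values were seen. Of the 47 genes below it, 11 higher and 2 lower ones had an unadjusted p under 0.05, where 9.56% and 3.97% of all genes below that level had, and DESeq2 called 10. Among the 48 genes at or above it, 0 were higher and 0 lower at that p, where 2.24% and 2.98% of all genes at or above that level were. DESeq2 called 0 of these 48, and their median difference was -0.14. Over all genes tested, 3.85% of the 12103 genes below that level and 0.497% of the 805 at or above it were called by DESeq2. Of the 34 members, 12 lay below the split and 22 at or above it.

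**Figure D4:**
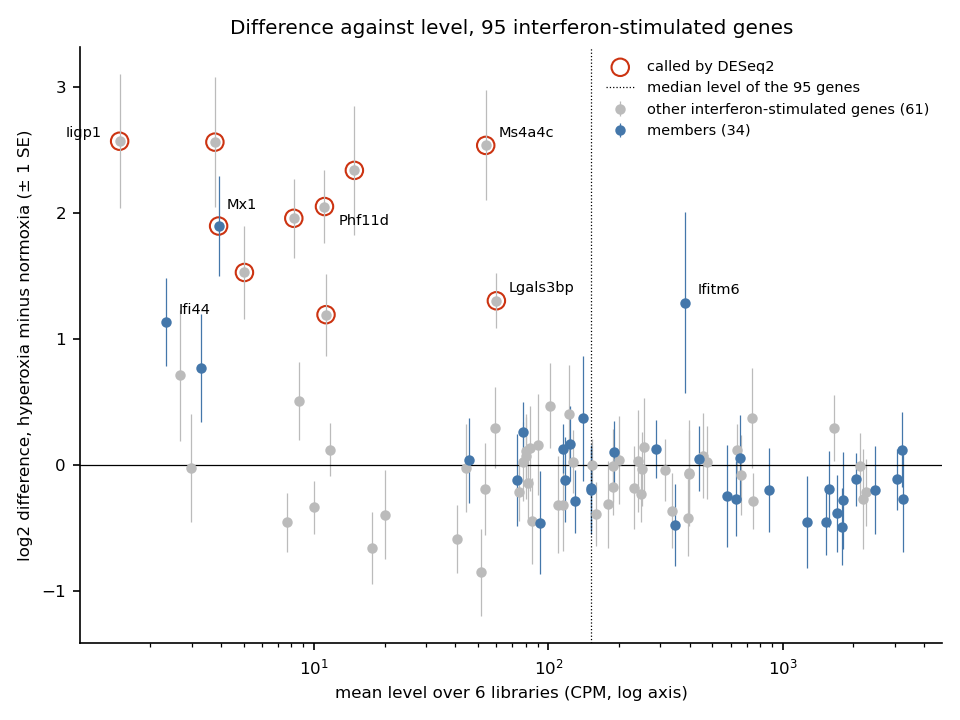
Log2 difference (± 1 SE) against the mean level over 6 libraries (CPM, log axis) for the 34 members and 61 other interferon-stimulated genes; red rings mark the 10 genes called by DESeq2 and the dotted line is the median level of the 95 genes. All rings lie left of the dotted line and above 0, and Ifitm6, to its right, has a difference that rests on 1 library.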

How the data were processed

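RNA-seq counts of 6 libraries were analysed, 3 normoxia and 3 hyperoxia, grouped by housing as labelled. No label says whether the libraries came from separate animals, so a p-value reflects only how these samples vary, and that variation may be technical. The authors deposited raw counts per Ensembl gene ID, as whole numbers without normalization. STAR 2.4.2a, GRCm38 and DESeq2 1.16.1 are named in the submitters' processing notes; for the counter, its strand setting and its annotation, the sources used here give nothing. IDs were matched to GENCODE M21 (42548 of 43432). Counts went through edgeR 4.0.16 in R 4.3.3: filterByExpr, TMM scaling, robust quasi-likelihood test, two-sided, Benjamini-Hochberg adjustment over 12908 genes. Intervals used the fit's SE and degrees of freedom. A floor of 3 counts was 0.0486 to 0.0776 CPM, for counting error only. Alternatives were DESeq2 1.42.0, limma-voom (limma 3.58.1), other scaling and filters, and leaving out each library; DESeq2 without each library and summed counts of near-identical pairs were added after seeing the data. On simulated data for this comparison (200 of 12908 genes changed, 3 runs) edgeR recovered 6.67% of 2-fold and 63.0% of 4-fold changes, with 17 of 226 calls false. DESeq2 recovered 24% and 77%, and 112 of 415 calls were false. The simulation drew genes independently, with the same dispersion in both groups, so its rates may differ from those in the real data. Shared 50-mers were counted in GENCODE transcripts. Members and lists were chosen with earlier results of these data known. All members were named; of pathway lists, genes fixed by name (1 is not reported here) and the gene with the lowest p in each direction, plus Cgas and the genes DESeq2 called, named after their values were seen. Cell type markers are given as counts and sums, except those of neutrophils and Siglech, named after their values were seen. For 2 genes the list held both an older and a newer symbol, and 2 more symbols, Gbp5 and Mnda, matched no row.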

Additional observations from a re-analysis of the deposited data

How the results depend on the processing

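The count of all genes called by edgeR, 0, was 512 with DESeq2, 36 with limma-voom and sample quality weights, 214 with no filter, and 0 to 176 with 1 library left out (176 without hyperoxia replicate 1). The count of members called, 0, was 1 (Mx1) with DESeq2 and 1 (Mx1) with no filter; DESeq2 called 1 to 5 members with 1 library left out. The cause of these differences was not tested. In edgeR the median difference of the members ranged from -0.48 to 0.08 with 1 library left out, and it ranged from -0.22 to -0.09 under the other settings with all libraries. Of the 240 other values of single members outside the left-out libraries, 3 changed sign: Eif2ak2 was -0.070 with limma-voom and -0.013 with library size only, and Ifi47 was -0.0021 with limma-voom. With 1 library left out, 32 of 204 values changed sign, and the log2 differences ran as follows for the genes concerned: Cmpk2 from -0.81 to 0.070, Ddx58 from -0.57 to 0.16, Dhx58 from -0.11 to 0.44, Eif2ak2 from -0.43 to 0.30, Ifi47 from -0.36 to 0.33, Ifih1 from -0.63 to 0.19, Ifit1 from -0.59 to 0.076, Ifit2 from -0.43 to 0.76, Ifit3 from -0.59 to 0.086, Ifitm1 from -0.13 to 0.35. They further ran, for Ifitm2 from -0.19 to 0.037, Ifitm3 from -0.24 to 0.053, Isg20 from -0.49 to 0.058, Oas1a from -0.026 to 0.29, Oas2 from -0.69 to 0.068, Oas3 from -0.56 to 0.11, Oasl1 from -0.81 to 0.017, Rsad2 from -0.76 to 0.097, Xaf1 from -0.046 to 0.29, Zbp1 from -0.18 to 0.25. Mx1, Ifi44, Mx2, Ifitm6, Oas1g and Bst2 kept a positive sign throughout these. Isg15, Usp18, Ifit3b, Oasl2, Parp14, Rtp4, Slfn5 and Trim30a kept a negative sign throughout, with Trim30a reaching -0.016. No paired analysis was possible because the labels carry no replicate numbers that pair libraries across groups. With 3 libraries a group, edgeR recovered 6.67% and DESeq2 24% of simulated 2-fold changes, so in that setting differences of that size were mostly missed by either. The simulation lacked the wider spread of hyperoxia in the real data (median SD over all genes 0.38, against 0.20 in normoxia).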
